A study of Vitis rotundifolia with 36 samples.

Results

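The outermost tissue of the Alachua berry (layer 1) was compared with the tissue directly beneath it (layer 2). Alachua is a purple muscadine grape (Vitis rotundifolia) cultivar with thick skin. The 6 libraries were taken by their titles, 3 of Alachua layer 1 and 3 of Alachua layer 2, out of 36 in all. The other libraries are layers 3 and 4 of Alachua and all 4 layers of Granny Val, a green cultivar of intermediate skin thickness, and of Supreme, a purple one with thin skin, with 3 libraries per group. All berries were mature, came from a research vineyard in Florida and have no treatment in the labels other than the layer. The protocol names layer 1 epidermis with cuticle and layer 2 hypodermis, whereas the sample tags read cuticle for layer 1 and exocarp for layer 2, so the layers are called here by number. The stated aim was to find genes linked to peel thickness, leathery skin, firmness and the slipping of the skin from the pulp. The labels do not say whether the replicates came from separate plants, so p-values measure the spread between these libraries, which may be technical.

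Grape skin consists of an epidermis, whose outer wall is sealed by a cuticle of cutin and wax that limits water loss and keeps out pathogens, and a hypodermis of several cell rows with thickened walls. The hypodermis gives the skin much of its mechanical strength and, in coloured grapes, the cells of the skin hold the anthocyanins in their vacuoles. In bulk tissue, fewer cells of a type and less RNA per cell cannot be told apart. The files give gene models by identifier only, a chromosome and a running number, and 0 of 26394 identifiers matched the reference table of the Carlos cultivar. Product names, marker genes of epidermis or hypodermis and sequences are therefore not given for any gene model, and the tissue labels could be checked only against the other cultivars.

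The 6 libraries held between 19057538 and 49005540 gene counts. The shallowest was layer 1 replicate 1, and the other 5 held at least 36734979. A count of 0 allowed a level of up to 0.157 CPM (the usual depth-scaled read count, with TMM factors except in these limits) in replicate 1 of layer 1 and up to 0.0817 CPM or less in each of the other 5, at 3 counts and for counting error only. The names of Alachua layer 1 replicate 1 and layer 2 replicate 2 lack the running number that the other 4 begin with. Pairs of libraries within layer 1 differed by 122 to 316 times what counting error gives (chi-square per degree of freedom over gene models), and pairs within layer 2 by 195 to 519 times, so that no library was a copy of another.

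The layer labels of Alachua were checked with scores set in Granny Val alone. One score is the mean log2 CPM of 374 gene models that were higher in Granny Val layer 1 than further in, and the other that of 280 gene models higher in Granny Val layers 3 and 4. The score of layer 1 models was 1.39, 2.45 and 2.74 in Alachua layer 1 replicates 1, 2 and 3 and -0.347, -1.46 and -1.76 in layer 2 replicates 1, 2 and 3. The groups did not overlap, and layer 1 replicate 1 was the nearest of its group to layer 2. The score of inner-layer models was -2.71, -3.02 and -3.26 in Alachua layer 1 and -1.64, -2.202 and 1.23 in layer 2. Layer 2 replicate 3 thus stood apart and lay nearest the inner layers of Granny Val. Its correlation of log2 CPM across gene models was 0.907 and 0.908 with the other layer 2 libraries and 0.932 to 0.949 with the 3 Alachua libraries of layers 3 and 4 whose scores matched their labels. By the same scores Alachua layer 3 replicate 1 lay nearest layer 1, and Alachua layer 4 replicates 2 and 3 lay nearest layer 2. In Supreme, replicate 1 of layer 1 lay nearest layer 2 and replicate 1 of layer 2 nearest layer 1, which makes 6 of the 24 libraries judged out of place.

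**Figure D1:**
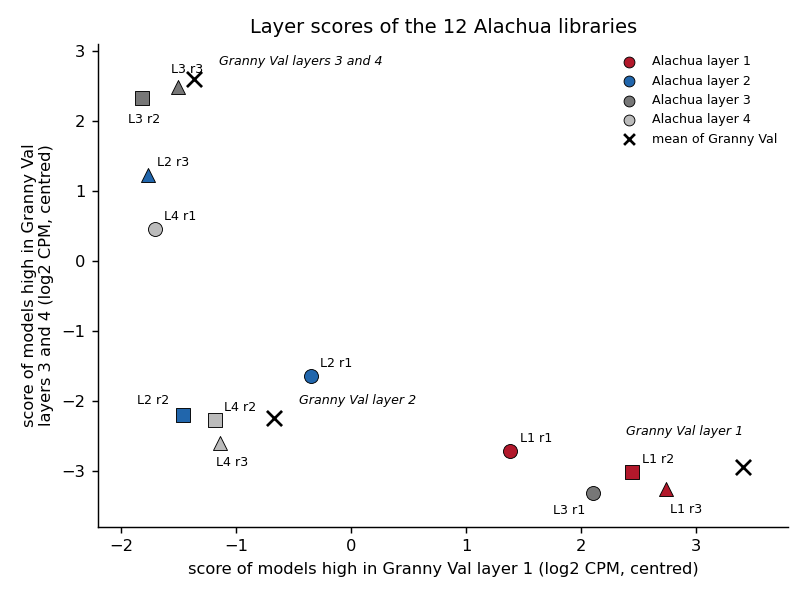
Layer scores of the 12 Alachua libraries (L, layer; r, replicate), in log2 CPM centred on Granny Val, against the means of Granny Val libraries (crosses). The layer 1 libraries lie between 1.39 and 2.74 on the horizontal axis and the layer 2 libraries between -1.76 and -0.347, with layer 2 replicate 3 at 1.23 on the vertical axis.

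The main axis of the 6 libraries separated the 2 layers. In a principal component analysis of the 6 libraries, component 1 held 49.1% of the variance. Layer 1 replicates 1, 2 and 3 had values of -55.9, -130.0 and -151.9 on it, against 59.8, 99.1 and 179.1 in layer 2. Component 2, with 16.4%, set layer 1 replicate 1 (-114.6) apart from layer 1 replicate 2 (78.2) and did not separate the layers. Correlations across gene models were 0.898 to 0.924 within layer 1, 0.907 to 0.944 within layer 2 and 0.788 to 0.901 between the layers. Layer 1 replicate 1 was as close to layer 2 replicates 1 and 2 (0.901 and 0.894) as to its own group (0.898 and 0.901).

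More gene models were detected in every layer 1 library than in any layer 2 library. At 1 CPM or more, 14683, 14360 and 14378 gene models were detected in layer 1 replicates 1, 2 and 3, against 13717, 13554 and 13535 in layer 2. The means were 14474 ± 182 and 13602 ± 100 (SD, n = 3 each), a difference of 872 with no overlap between groups, and the exact two-sided permutation test gave p = 0.1, the smallest that 3 against 3 allows. In bulk tissue such a count also depends on depth, and layer 1 held the shallowest library. The 100 most abundant gene models took 30.8%, 31.3% and 31.6% of the counts in layer 1, against 36.2%, 36.6% and 31.4% in layer 2. Those groups overlapped through layer 2 replicate 3 (exact permutation p = 0.2). The 10 most abundant took 17.1% ± 0.902 in layer 1 and 17.5% ± 3.91 in layer 2 (SD, n = 3 each, exact permutation p = 1).

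The most abundant gene models of the layers were largely the same. Of the 100 most abundant gene models of each layer, 69 were in both lists. The leading gene model of layer 1, evm.model.chr19.851 on chromosome 19, had 36518, 45223 and 58252 CPM in layer 1, against 42308, 36649 and 9604 CPM in layer 2. The groups overlapped, and the low value belonged to layer 2 replicate 3 (adjusted p = 0.726 in edgeR). The leading gene model of layer 2, evm.model.chr5.908 on chromosome 5, had 11931, 12541 and 10646 CPM in layer 1, against 31779, 56703 and 24409 CPM in layer 2. Every layer 2 library was above every layer 1 library, with a log2 fold change of -1.68 and an adjusted p of 0.153 in edgeR. Both were chosen for their rank and not for a difference between layers. The lists of 100 held 131 gene models together. Before any test, 14 of the 131 were at least 2-fold higher in layer 1 and 39 at least 2-fold lower. Over all gene models tested the shares were 20.2% and 12.8%. Over those with a mean of at least 100 CPM in the 6 libraries they were 8.46% and 9.42%. A gene model can be in only 1 of the lists because the layers differ in it, so these counts are a description.

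The main test called no gene model between the layers, although many pointed in 1 direction in all libraries. All 36 libraries were fitted together with edgeR's quasi-likelihood test, which shares 1 estimate of the spread over the 12 groups, and a gene model was called at an adjusted p under 0.05 and at least a 2-fold change. Of 19241 gene models tested 0 were called (0.0%), and the smallest adjusted p was 0.0615. At an unadjusted p under 0.05 there were 3171, or 16.5% of those tested, 1727 higher in layer 1 (8.98%) and 1444 lower (7.5%), while DESeq2 on the same libraries called 1098 of 22565 (4.87%), 699 higher (3.1%) and 399 lower (1.77%). Every layer 1 library was above every layer 2 library in 2395 gene models (12.4%), of which 1819 (9.45% of all tested) also differed at least 2-fold. The opposite held in 1917 gene models (9.96%), of which 778 (4.04% of all tested) differed at least 2-fold. For 1 gene model, such a separation of 3 against 3 has p = 0.1 in an exact two-sided permutation test. Part of these gene models would therefore separate without any layer difference. The estimated log2 fold changes had quartiles of -0.45 and 0.68 around a median of 0.00, with a median standard error of 0.62.

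The balance of directions changed with the level of the transcript. Among 4594 gene models with a mean under 1 CPM over the 6 libraries, 35.7% were at least 2-fold higher in layer 1 and 28.8% at least 2-fold lower. Between 1 and 10 CPM the shares were 24.7% and 11%, and between 10 and 100 CPM 10.8% and 5.15%. At 100 CPM or more, where counting error is least, 159 of 1879 were at least 2-fold higher (8.46%) and 177 at least 2-fold lower (9.42%). The excess of gene models at least 2-fold higher in layer 1 thus lay below 100 CPM. The larger number of detected gene models in layer 1 comes from the same 6 libraries and is not a separate result. The part of depth in the excess was not tested.

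Calls appeared when the libraries entering the fit were restricted. The 6 Alachua libraries of layers 1 and 2 alone gave 234 calls of 16092 tested (1.45%), 177 higher in layer 1 (1.1%) and 57 lower (0.354%). Leaving out the 6 libraries out of place, among them layer 2 replicate 3, gave 289 of 20529 (1.41%), 158 higher (0.77%) and 131 lower (0.638%). Leaving out the 5 of them that belong to other groups, so that all 6 Alachua libraries of layers 1 and 2 stayed, gave 932 of 20559 (4.53%), 540 higher (2.63%) and 392 lower (1.91%). A covariate for whether a library name carries a running number gave 81 calls (0.421%), 29 higher (0.151%) and 52 lower (0.27%). Leaving out layer 2 replicate 3 alone gave 0, the 12 Alachua libraries alone 0, and the numbered libraries, which hold 2 of each layer, 0. In the last 3 fits the gene models at an unadjusted p under 0.05 numbered 1860 of 19786 (9.4%), 2190 of 17259 (12.7%) and 2748 of 20360 (13.5%). Libraries judged out of place were picked from measured levels, so these fits describe the dependence on them and do not replace the main test.

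The restricted lists depended on single libraries. In the 6 libraries alone the 234 calls became 135, 0 and 0 without layer 1 replicates 1, 2 and 3, and 365, 11 and 191 without layer 2 replicates 1, 2 and 3. In the fit without the libraries out of place the 289 calls became 543, 90 and 39 without layer 1 replicates 1, 2 and 3, and 91 and 23 without layer 2 replicates 1 and 2. Layer 1 replicate 1, whose removal gave 543 calls, was the layer 1 library nearest layer 2 on both layer scores.

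**Figure D2:**
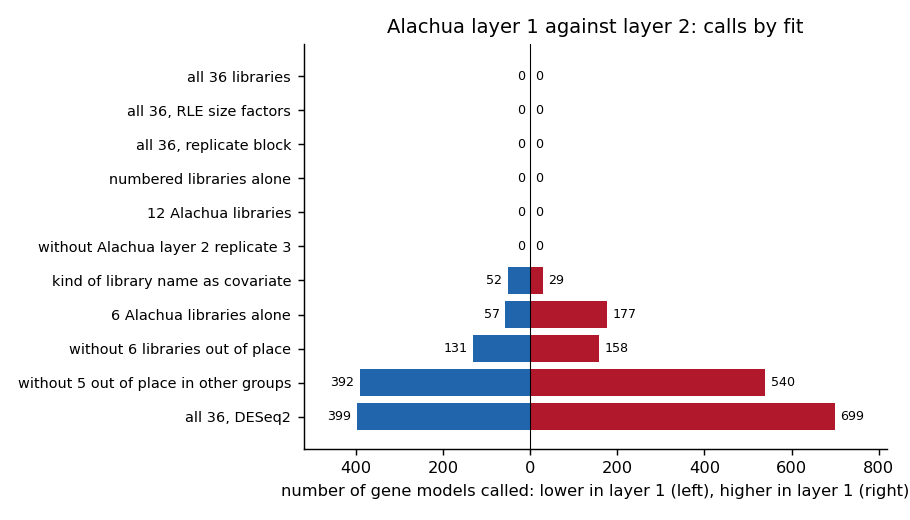
Number of gene models called in Alachua layer 1 against layer 2 (adjusted p under 0.05 and at least 2-fold) by fit, higher in layer 1 to the right and lower to the left. No gene model was called in the fit of all 36 libraries or without Alachua layer 2 replicate 3, 234 were called in the 6 libraries alone and 932 without the 5 out of place libraries of other groups.

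A set of 94 gene models was called in the same direction by all 3 restricted edgeR fits (the 6 libraries alone, without the 6 out of place and without the 5 in other groups), 0.584% of the 16092 tested in each. These fits share libraries and the set was chosen after its values were seen, so the values that follow are a description. Of the 94, 54 were higher in layer 1 (0.336%) and 40 lower (0.249%), and in all 94 the 3 libraries of 1 layer lay above the 3 of the other, layer 2 replicate 3 included. In the main test their adjusted p ran from 0.0615 to 0.189. The 54 higher gene models had a median of 37.8 CPM in layer 1 and 1.86 CPM in layer 2, and 10 of them had 0 counts in all layer 2 libraries. The 40 lower ones were more abundant, with medians of 28.8 CPM in layer 1 and 183 CPM in layer 2, and 27 of them reached 100 CPM in layer 2. Together the 54 took 0.25%, 0.398% and 0.475% of the counts in layer 1, against 0.0313%, 0.0236% and 0.0257% in layer 2. The 40 took 0.287%, 0.312% and 0.226% in layer 1, against 1.16%, 1.56% and 2.64% in layer 2. The highest of these shares belonged to layer 2 replicate 3.

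Of the 54 and 40 gene models, 48 and 40 met the limits set for naming (at least 10 CPM on the higher side and no overlap between groups), and the pair with the largest fitted fold change in each direction is given by identifier. Among gene models at 0 counts in layer 2 that order depends on the prior count of the fit: evm.model.chr7.11 shared its fitted log2 value of 12.13 with another gene model, and a further one had 12.07. On chromosome 14, evm.model.chr14.1270 had 10.3, 25.6 and 46.3 CPM in layer 1 and 0 counts in each of the 3 layer 2 libraries. That made it at least 1407-fold higher in layer 1, with layer 2 set at 3 counts summed over its libraries. Its adjusted p was 0.0884 in the main edgeR fit and 0.00272 to 0.0315 in the 3 restricted ones. On chromosome 7, evm.model.chr7.11 had 6.78, 13.8 and 15.9 CPM in layer 1 and 0 counts in layer 2, at least 602-fold higher. Its adjusted p was 0.138 in the main edgeR fit and 0.00474 to 0.0341 in the restricted ones. For both gene models the groups did not overlap, and the lowest layer 1 value belonged to replicate 1.

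In the other direction, evm.model.chr7.1538 on chromosome 7 had 0.24, 0 and 0 CPM in layer 1, against 6.29, 42.4 and 31.7 CPM in layer 2. Only replicate 1 of layer 1 held any count of it (5 counts), and the ratio of summed counts per total was 558 in favour of layer 2. Its adjusted p was 0.0723 in the main edgeR fit and 0.000522 to 0.0463 in the restricted ones. On chromosome 8, evm.model.chr8.2514 had 14.1, 16.3 and 4.05 CPM in layer 1, against 186, 476 and 1844 CPM in layer 2. The means were 11.5 ± 6.53 and 835 ± 885 CPM (SD, n = 3 each), and the SD of layer 2 rested on replicate 3. The log2 fold change was -6.19 (SE 1.58, adjusted p = 0.0833 in edgeR) with all libraries and -4.87 without the 6 out of place (adjusted p = 0.017).

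**Figure D3:**
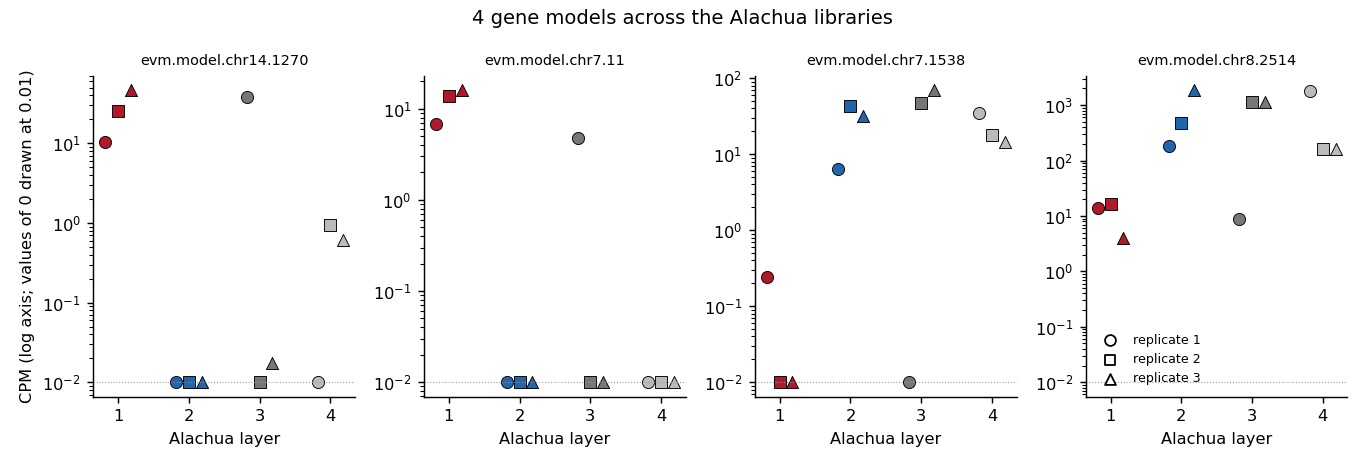
CPM of 4 gene models in the 12 Alachua libraries by layer, 1 point per library, on log axes with values of 0 drawn at 0.01. The 2 models on the left are at 0 in all layer 2 libraries, and replicate 1 of layer 3 stands with layer 1 in all 4 panels.

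The most abundant gene model among the 54, on chromosome 8, had 98.2, 1202 and 1255 CPM in layer 1, against 20.4, 16.2 and 13.8 CPM in layer 2. Layer 1 replicate 1 was thus far below the other layer 1 libraries and above all layer 2 libraries. The most abundant among the 40, on chromosome 6, had 23, 97.2 and 18.5 CPM in layer 1, against 1164, 3277 and 3935 CPM in layer 2. Across the 54, layer 1 replicate 1 was the lowest of its group in 35, and across the 40 it was the highest of its group in 16. Layer 2 replicate 3 was the highest of its group in 32 of the 40.

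Layers 3 and 4, which took no part in the contrast, were read in the same gene models. The 3 in-place libraries were kept by their scores, which were unlike those of the outer layers, so the values that follow depend on that choice. The 54 and the 40 were themselves chosen for their difference between layers 1 and 2. Positions relative to the layer 1 mean thus follow in part from how the gene models were picked. Shares over all gene models are not given, so these counts are a description. In the 3 in-place libraries of Alachua layers 3 and 4, all 54 higher gene models lay below their layer 1 mean, with a median of 1.82 CPM, close to the 1.86 CPM of layer 2. Of the 54, 25 were lower there than in layer 2 and 26 higher. All 40 lower gene models lay above their layer 1 mean in layers 3 and 4, with a median of 228 CPM, and 33 were higher there than in layer 2. Without layer 2 replicate 3, 37 of the 40 were. The mean log2 CPM of the 54 was 4.67, 5.03 and 5.43 in layer 1, -0.09 to 0.44 in layer 2 and -0.29 to 0.15 in the 3 in-place inner libraries. That of the 40 was 4.15 to 4.69 in layer 1, 7.08, 7.49 and 8.01 in layer 2 and 7.85 to 8.06 in the in-place inner libraries. In layer 4 replicates 2 and 3, which were left out of these counts, it was -0.01 and 0.66 for the 54, and 7.21 and 6.97 for the 40, the second of which lies below all layer 2 libraries. Layer 3 replicate 1 had 4.39 for the 54 and 4.62 for the 40, close to the 4.67 and 4.69 of layer 1 replicate 1.

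The 289 gene models called without the libraries out of place were placed over the layers in the same way, with layer 2 replicate 3 left out of the layer 2 mean. Of the 131 lower in layer 1, 101 were higher in the in-place libraries of layers 3 and 4 than in both outer layers, 28 lay between and 2 below both. Of the 158 higher in layer 1, 84 lay between the outer layers, 68 below both and 6 above both. Layer 2 replicate 3, which that fit did not use, lay on the layer 2 side of all layer 1 libraries in 147 of the 158 and in 128 of the 131. Over all gene models tested, all 3 layer 2 libraries lay below all layer 1 libraries in 12.4% and above them in 9.96%. The share for replicate 3 alone was not computed, and shares over all gene models for the inner libraries are not given. The mean of the in-place inner libraries was above the layer 1 mean in only 6 of the 158 and in 129 of the 131. Such counts therefore do not tell layer 2 from the inner layers. The layer 1 libraries are those that chose the lists, so these counts are a description.

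**Figure D4:**
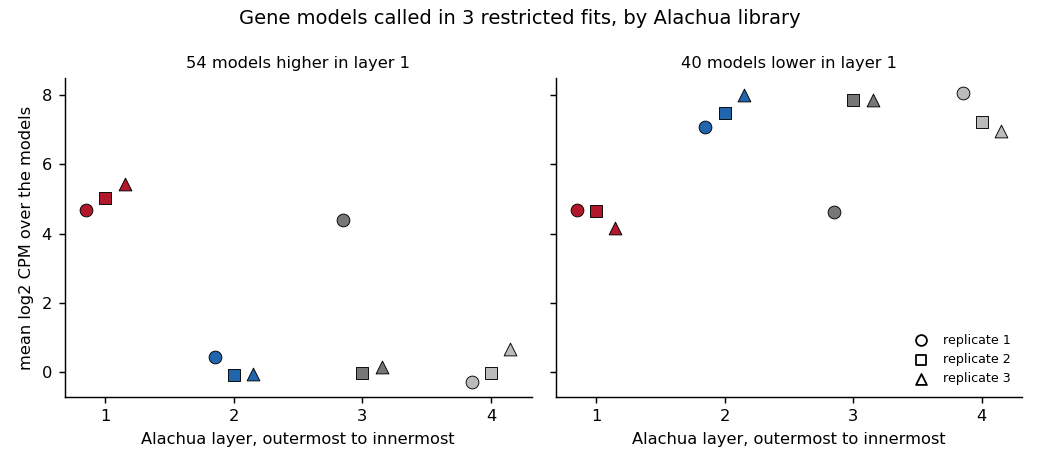
Mean log2 CPM over the 54 gene models higher (left) and the 40 lower (right) in Alachua layer 1 by all 3 restricted fits, 1 point per Alachua library, layers in order from the outside inwards. The higher ones run from 4.67 to 5.43 in layer 1 and at most 0.44 in layer 2; layer 3 replicate 1 stands at 4.39 on the left and 4.62 on the right, with layer 1.

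The called gene models were spread over the genome. The 54 and the 40 each lay on 16 of the 20 chromosomes. Among the 289, the share called ran from 0.708% of 1130 tested on chromosome 13 to 2.63% of 685 tested on chromosome 20. Chromosomes 3, 15 and 19 had 9, 6 and 8 gene models higher in layer 1 and 1 lower each, whereas chromosome 2 had 5 higher and 11 lower. Neighbours among the tested gene models were both higher in 5 pairs and both lower in 6 pairs, and no run was longer than 2. The number of pairs among gene models taken at random was not computed, so these pairs do not show whether the calls cluster. One pair of higher neighbours was evm.model.chr7.11 with the next identifier, which had 36, 5.03 and 2.59 CPM in layer 1, against 0, 0.0561 and 0 CPM in layer 2. Another pair of higher neighbours was evm.model.chr14.1270 with evm.model.chr14.1276, the next tested gene model. Neighbouring copies of near-identical sequence can share or lose reads, so counts in such pairs are uncertain.

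Granny Val gave a second measure of the same layers in libraries that Alachua does not share. Between layers 1 and 2 of Granny Val 593 gene models were called in the main fit (3.08%), 171 higher in layer 1 (0.889%) and 422 lower (2.19%). In Alachua, 143 of the 171 were also higher in layer 1 (83.6%, against 48.7% of all gene models), with a median log2 fold change of 0.55 against 0.00 over all gene models. Of the 422, 373 were also lower in Alachua layer 1 (88.4%, against 48.1%), with a median of -0.59. At an unadjusted p under 0.05, 63 of the 171 were higher and 1 was lower in Alachua, and 149 of the 422 were lower and 1 was higher. The shares of 36.8% and 35.3% in the Granny Val direction stood against 8.98% and 7.5% of all gene models. Leaving out each of the 6 libraries in turn gave medians of 0.38 to 0.70 for the 171 and -0.96 to -0.49 for the 422. The lowest value of the 171 came without layer 1 replicate 3 and the -0.96 without layer 1 replicate 1, and without layer 2 replicate 3 the medians were 0.57 and -0.53.

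The same lists ordered the Alachua libraries by layer. They come from the Granny Val libraries that also set the layer scores, so this order is not a separate check of the labels. The mean log2 CPM of the 171 was 4.43, 5.09 and 5.22 in Alachua layer 1 replicates 1, 2 and 3, against 3.97, 3.44 and 3.76 in layer 2. In Granny Val, where they were chosen, it was 5.72 to 5.99 in layer 1 and 3.11 to 3.20 in layer 2. The mean of the 422 was 5.33, 4.61 and 4.35 in Alachua layer 1, against 5.48, 5.77 and 5.75 in layer 2. The groups of Alachua did not overlap on either list, and layer 1 replicate 1 lay nearest layer 2 on both. Replicate 3 of layer 2, which stood apart on the inner-layer score, lay between the other layer 2 libraries on both lists. Alachua layer 3 replicate 1, at 4.86 and 4.57, lay within the range of Alachua layer 1 on both lists.

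**Figure D5:**
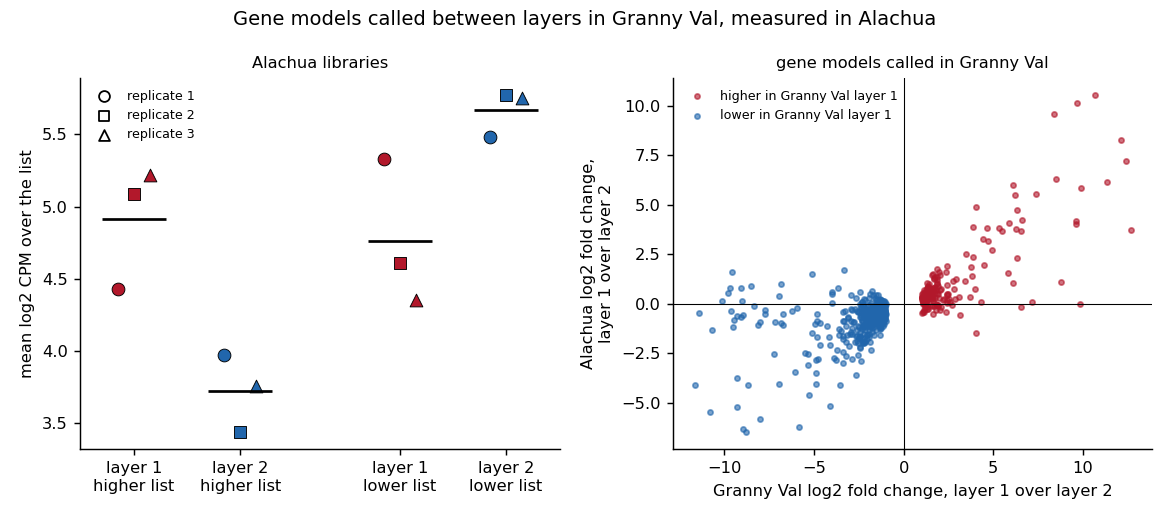
Left, mean log2 CPM of the 171 gene models higher and the 422 lower in Granny Val layer 1, in each Alachua library of layers 1 and 2, with lines at the group means. Right, log2 fold change (layer 1 over layer 2) of each of these gene models in Granny Val and Alachua; 143 of the 171 and 373 of the 422 have the same sign in both.

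The gene models with the largest differences in Granny Val were also followed in Alachua. Over all gene models tested, 20.2% were at least 2-fold higher in Alachua layer 1 and 12.8% at least 2-fold lower. Among those with a mean under 1 CPM over the 6 libraries, the shares were 35.7% and 28.8%. The share of all gene models at 32-fold is not given. Of 28 that were at least 32-fold higher in Granny Val layer 1, 25 were at least 2-fold higher in Alachua layer 1, 11 of them at least 32-fold. The other 3 differed less than 2-fold, but 1 of them had 0 counts in the Alachua libraries compared. Of 46 that were at least 32-fold lower in Granny Val layer 1, 21 were at least 2-fold lower in Alachua layer 1, 6 of them at least 32-fold, and 3 were at least 2-fold higher. The other 22 differed less than 2-fold in Alachua, with median levels of 2.04 CPM in Alachua layer 1 and 2.31 CPM in Alachua layer 2, against 0 and 1.4 CPM in layers 1 and 2 of Granny Val. Seen from the Alachua side, 53 of the 54 gene models higher in layer 1 and 39 of the 40 lower had the same sign in Granny Val, against 50.3% and 49.7% of all gene models, with medians of 3.31 and -1.68 there. Of these, 4 and 11 (7.41% and 27.5%) were called in Granny Val, against 0.889% and 2.19% of all gene models. The fits without out of place libraries, which helped to choose the 54 and the 40, dropped libraries by scores set in Granny Val. The values seen from the Alachua side thus depend in part on that choice and are a description.

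In Supreme, the thin-skinned cultivar, the 171 and the 422 had medians of 0.14 and -0.21 with all its libraries, and 120 and 324 of them had the sign seen in Granny Val (70.2% and 76.8%, against 54.2% and 45.8% of all gene models). Without replicate 1 of layers 1 and 2, the medians were 0.67 and -0.75, and 151 of the 171 and 395 of the 422 had that sign, against 46.0% and 46.9% of all gene models. Those libraries were judged out of place by gene models that separate the layers of Granny Val, so these values depend on that choice and are given as a description. The 4 gene models given by identifier varied between cultivars. Granny Val had 5.3 to 15.7 CPM of evm.model.chr14.1270 in layer 1 and 0 to 0.313 CPM in layer 2. Supreme had 0.655, 6.11 and 13 CPM of it in layer 1 and 0, 1.01 and 52 CPM in layer 2, the highest value of each layer belonging to replicate 1. For evm.model.chr8.2514, Alachua layer 2 at 186 to 1844 CPM lay above Granny Val layer 2 at 23.1 to 104 CPM and Supreme layer 2 at 1.09 to 8.64 CPM. For none of the 4 did the layer change pass the test of a difference between cultivars (adjusted p of 0.576 or more in edgeR), which does not show that the changes were alike.

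The difference in layer change between Alachua and Granny Val passed the test in 1 of 19241 gene models (0.0052%) with edgeR. An unadjusted p under 0.05 was found in 1645 (8.55%), and DESeq2 called 306 of 22565 (1.36%). The 1 that passed in edgeR was evm.model.chr8.2102 on chromosome 8. It had 8.51, 7.65 and 9.81 CPM in Alachua layer 1 and 7.08, 6.68 and 10.3 CPM in Alachua layer 2, groups that overlapped. In Granny Val it had 1.8, 0.9 and 2.31 CPM in layer 1 and 0.0241, 0 and 0 CPM in layer 2, a total of 1 count. The log2 difference between the cultivars was -7.07 (SE 0.95, adjusted p = 0.00223 in edgeR). It was named because the count is small, below the 10 CPM set for naming. Supreme had 7.75, 7.72 and 3.43 CPM in layer 1 and 7.43, 10.3 and 12.4 CPM in layer 2. Between Alachua and Supreme 0 gene models passed the test (0.0%) with edgeR. An unadjusted p under 0.05 was found there in 1224 (6.36%), and DESeq2 called 233 (1.03%).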

How the data were processed

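Each library came as its own table of raw counts, deposited by the authors, with a line per gene model. Per the labels' protocols, polyadenylated RNA was made into libraries with a directional kit; no source used here states strand in the counting, so overlapping genes on opposite strands may share counts. HTSeq 0.11.2, STAR, cutadapt, DESeq2 and SAMtools are named in the submitters' processing notes, with no role. For the genome build: not given in the sources used here. Totals and tests leave out the 5 special HTSeq lines; in the 6 libraries, reads outside gene models made 7.733% to 11.35% of all counts listed, special lines included.

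Counts were fitted here with edgeR 4.0.16 in R 4.3.3 (TMM scaling, filterByExpr by group, 12 group means, quasi-likelihood F test with 24 residual degrees of freedom, Benjamini-Hochberg adjustment over all gene models tested). The filter was applied anew in each alternative fit. DESeq2 1.42.0 was an alternative. Log2 CPM used a prior count of 2. Standard errors are the fold change divided by the root of F. The fit was tested on simulated data with the same dispersion for all gene models and no library out of place. Those settings differ from these data, so that test does not show the power of the main fit here. Layer scores came from the 12 Granny Val libraries by their labels (models called higher in layer 1 than in layer 2 and the inner layers, or in the inner layers than in both outer ones), and each library went to the nearest Granny Val mean. The naming rule asked for a call in the main fit, at least 10 CPM on the higher side and no overlap; with 0 calls it named none, so gene models were named by its other limits from the restricted fits, after their values were seen. Lists and members were chosen with earlier results of these data known. Deviations from the group means of same-numbered Alachua libraries correlated at -0.205, -0.051 and -0.052. With 3 libraries per group, and layer 2 replicate 3 out of place, these values cannot show whether same-numbered libraries belong together. The main fit took the libraries as unpaired.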

Additional observations from a re-analysis of the deposited data

Results flagged for a closer look

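The layer change of evm.model.chr8.2102 differed between Alachua and Granny Val (adjusted p = 0.00223 in edgeR). It averaged 8.65 ± 1.09 CPM in Alachua layer 1 and 8.02 ± 1.98 CPM in Alachua layer 2, against 1.67 ± 0.714 CPM in Granny Val layer 1 and 1 count over the 3 libraries of Granny Val layer 2 (SD, n = 3 each). The Granny Val ratio of layer 1 to layer 2 was 203, with a 95% counting interval from 36 to 8039. The Supreme mean of layer 1 was 6.3 ± 2.48 CPM and that of layer 2 was 10.0 ± 2.48 CPM. The call held in each of the 19 alternative fits.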

How the results depend on the processing

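The count of 0 calls in Alachua stayed 0 with RLE size factors, with no filter on low counts, with no fold minimum, with the replicate block, in the 12 Alachua libraries, in the numbered libraries alone and without Alachua layer 2 replicate 3, alone or together with the out of place Supreme libraries of layers 1 and 2. It became 81 with a covariate for numbered names, 234 in the 6 libraries alone (0 there with a replicate block), 289 without the 6 libraries out of place, 932 without those of other groups and 1098 with DESeq2; a cause was not tested. Leaving out 1 of the 6 libraries from the main fit gave 0 to 1 calls, the 1 without Alachua layer 1 replicate 1. Added after seeing the data, the 6 libraries less 1 gave 0 to 365 calls (135, 0, 0, 365, 11 and 191), and the fit without the libraries out of place less 1 more gave 23 to 543 (543, 90, 39, 91 and 23). For Alachua against Granny Val the 1 call stayed 1 with the replicate block and became 2 with that covariate, 5 without the libraries out of place, 306 with DESeq2 and 1 to 4 without a single library. Removing replicate 1 of Alachua layer 1 gave 2, removing replicate 3 of Granny Val layer 1 gave 3 and removing replicate 3 of its layer 2 gave 4. For Alachua against Supreme the count of 0 became 233 with DESeq2 and stayed 0 in the 18 other fits. The medians of both Granny Val lists in Alachua kept their sign in all 18 alternatives, at 0.38 to 0.76 and -0.96 to -0.49, and so did the differences in detected gene models and in the share of the 100 most abundant in their 7. The difference in the share of the 10 most abundant (-0.346 percentage points) was 0.00709, 0.68 and 0.885 without layer 1 replicate 1, layer 2 replicate 1 and layer 2 replicate 2. The 4 gene models given by identifier kept their direction in all alternatives. Depth limits gene models near 0.157 CPM in layer 1 replicate 1.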
